A study of Mus musculus with 4 samples.

Results

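The genes described here encode proteins of PML nuclear bodies, and the Sp100 family to which some of them belong, in B16-OVA cells, an established line of mouse melanoma cells with a transgene for ovalbumin. They were chosen by symbol: Pml, Sp100, Sp110, Sp140, Daxx and Atrx, whichever probes the array's annotation assigns to them. Of these 6 genes, 5 had a probe that names the gene alone and were tested among 22180 genes, and Sp140 was named only by probes that it shares with other genes. Of the 41345 probes on the array, 15 named at least 1 of the 6. The study had 4 arrays, 2 of mock transfected cells and 2 of cells transfected with AT90ES. The group names and the treatment text link AT90ES to double-stranded DNA, 90 base pairs long, delivered with Lipofectamine 2000, a cationic lipid, for 6 hours. The treatment text is the same for every array, so it stays unstated what the mock cells were given, and an effect of the DNA cannot be told apart from one of transfection.

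PML nuclear bodies are round assemblies in the nucleus built on PML, a member of the tripartite motif family (TRIM19) that becomes modified with the ubiquitin-like protein SUMO and gathers partners that bind SUMO. SP100 resides in the same bodies and gives its name to a family with SP110 and SP140, chromatin-binding proteins best known from immune cells. DAXX is a histone chaperone that, with the chromatin remodeller ATRX, places histone variant H3.3 on repeats and on foreign DNA that enters the nucleus. Pml and Sp100 are textbook interferon-stimulated genes, and the bodies are known for restraining DNA viruses.

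The mouse genes Sp110, Sp140 and Sp100 are neighbours on chromosome 1, beside several close relatives. RefSeq promoter windows (assembly GRCm38.p6, 250 bases before to 50 after a start) were found for all 6 genes, 10 windows in all. The window of Sp100 aligned with that of its relative Gm7609 over 272 bases, of which 268 (98.5%) were identical. The stretches below, on the strand of each gene, are shown because they make that likeness visible. In Sp100 (chr1:85649868-85649987, plus strand, GRCm38.p6) capitals mark the letters AANNGAAA on either strand, the core bound by interferon regulatory factors, a motif chosen after the sequences were seen. In Gm7609 (chr1:85199463-85199582, plus strand) a capital marks a base that differs from Sp100.
Sp100: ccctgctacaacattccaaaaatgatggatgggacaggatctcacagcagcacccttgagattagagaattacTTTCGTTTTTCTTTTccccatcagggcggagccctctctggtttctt
Gm7609: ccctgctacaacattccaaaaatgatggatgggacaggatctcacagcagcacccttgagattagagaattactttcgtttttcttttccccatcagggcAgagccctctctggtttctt

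Sp140 has relatives that are at least as near. Its window matched that of A530032D15Rik at 270 of 271 aligned bases and that of C130026I21Rik at 254 of 255. The following 100 bases are from chr1:85600565-85600664 (plus strand) for Sp140, chr1:85109863-85109962 (minus strand) for A530032D15Rik and chr1:85270567-85270666 (minus strand) for C130026I21Rik. They are shown for the likeness of these genes next to their starts, which the probes do not read, and capitals mark a base that differs from Sp140.
Sp140: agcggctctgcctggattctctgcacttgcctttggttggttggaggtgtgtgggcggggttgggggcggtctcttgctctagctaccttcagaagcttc
A530032D15Rik: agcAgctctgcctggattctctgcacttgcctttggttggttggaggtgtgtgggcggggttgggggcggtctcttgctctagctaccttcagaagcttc
C130026I21Rik: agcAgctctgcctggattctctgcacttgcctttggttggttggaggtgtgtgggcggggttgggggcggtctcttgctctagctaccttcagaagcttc

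Motifs were searched as plain letters on both strands. The interferon-stimulated response element, searched as a pair of GAAA with any 2 bases between them, was in 0 of the 10 windows of these genes and in 3.44% of all 32851 windows, the gamma activated sequence (TTCNNNGAA) in 0 of 10 and in 8.30% of all, and either of 2 forms of the NF-kappaB site in 0 of 10 and in 0.244% of all. The shorter core AANNGAAA, which the response element contains, was in 4 of the 10 windows and in 23.9% of all windows. The 4 were the 1 window of Pml, both windows of Sp100 and 1 of the 2 windows of Sp110. The 2 windows of Sp100 overlap and hold the same matches, so the 4 are not separate finds. Sp100 and Sp110 held 2 cores on the same strand, and 3.75% of all windows held 2 or more on 1 strand, wherever they lay. Because the core was chosen after these sequences were seen, setting its counts beside the shares of all windows tests nothing. The core stretches of Pml (chr9:58249787-58249906, minus strand, the 120 bases before the start) and of Sp110 (chr1:85598783-85598805, minus strand, bases 6 to 28 after a start) are printed with the core in capitals, for comparison with Sp100 above. A match is a description of letters and not a measured site.
Pml: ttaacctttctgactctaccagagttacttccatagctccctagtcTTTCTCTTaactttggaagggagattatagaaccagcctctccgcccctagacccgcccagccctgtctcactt
Sp110: tcacTTTCATTTTTCTTTTcttg

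Levels were deposited as log2 values made with RMA, a method that corrects background, equalises the arrays and summarises each probe set. The median level over all probes lay between 4.83 and 4.91 on the 4 arrays. Olfactory receptor genes (1105 measured) were taken as silent in these cells, and their 95th percentile lay between 4.85 and 5.07 and serves below as the background level. All 10 measured pigment cell markers (Tyr, Tyrp1, Dct, Pmel and others) were above it on every array. Of 10 myeloid markers 4 were above it on every array (Cd68, Lyz2, Csf1r and Fcer1g), while Ptprc, Itgam, Adgre1 and Tyrobp were under it on all. Of 9 lymphocyte markers 8 were under it on all arrays, and of 10 fibroblast and endothelial markers 4 were above it on every array and 2, Dcn and Lum, under it on all. Pearson's r over genes was 0.992 within mock, 0.993 within AT90ES and 0.987 to 0.989 across groups. The labels do not say whether replicates came from separate cultures, so p-values reflect the spread of these 4 arrays alone, and that spread may be technical.

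In cells given AT90ES, Pml showed the largest difference of the 5 measured genes: it was 1.91-fold higher, Daxx was 1.2-fold higher, and Sp110 and Atrx differed by less than 4% by the probe that stands for each gene. Sp100 was near background and varied too much between replicates for a difference to be read. These are bulk RNA samples, in which a change in cell makeup and a change of RNA per cell cannot be told apart. None of the 5 passed the threshold, an adjusted p under 0.05 in limma's moderated test over all genes (Benjamini-Hochberg, two-sided). Of all 22180 genes 0.415% were called higher and 0% lower. At an unadjusted p under 0.05, limma put 1 of the 5 higher, Pml, where 4.5% of all genes were higher, and 0 of the 5 lower, where 4.59% of all were lower. Both AT90ES arrays lay above both mock arrays for 2 of the 5 genes, Pml and Daxx, against 17.7% of all genes, and below them for 1, Atrx, against 22.1% of all genes. An exact permutation test of 2 against 2 arrays cannot give a p below 0.33, so it could not pass for any gene.

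**Figure D1:**
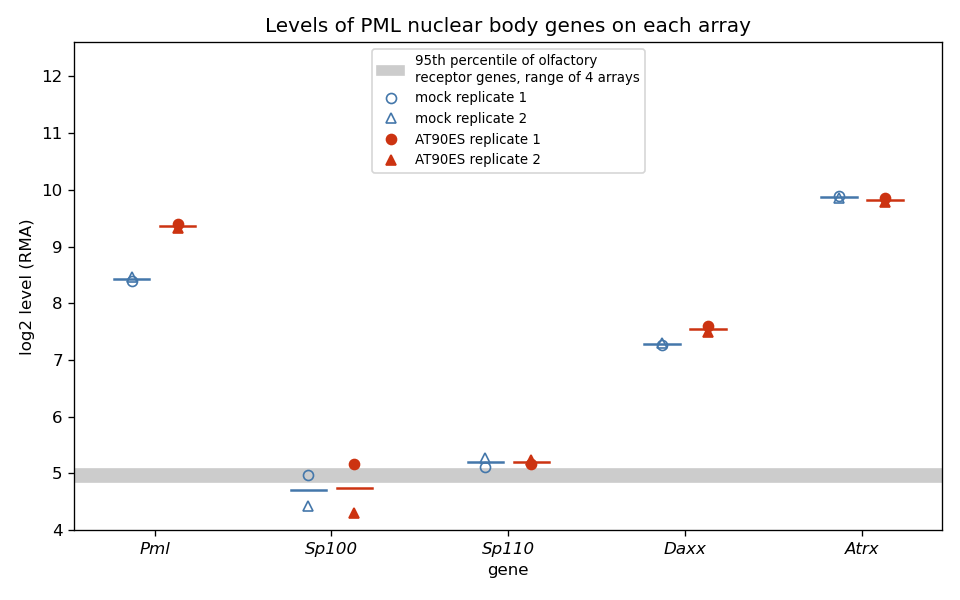
Log2 level (RMA) of the 5 genes with a probe of their own on each array, mock in open blue and AT90ES in filled red symbols, replicate 1 as circles and replicate 2 as triangles, with group means as bars. The grey band spans the 95th percentile of olfactory receptor genes (4.85 to 5.07). Both AT90ES arrays of Pml, at 9.32 and 9.40, lie above both mock arrays, at 8.39 and 8.47, while the arrays of Sp100 scatter across the band. Heights of different genes are not comparable, since probes differ in brightness.

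Pml, the scaffold of the bodies, was at a log2 level of 8.39 and 8.47 after mock transfection and of 9.40 and 9.32 after AT90ES. The groups did not overlap: the smallest gap between them was 0.85 on the log2 scale, against 0.083 within mock and 0.078 within AT90ES. The group means were 8.43 ± 0.06 (mock) and 9.36 ± 0.06 (AT90ES; SD, n = 2 arrays per group). The log2 fold change was 0.93 ± 0.12 (SE), or 1.91-fold with a 95% interval of 1.56 to 2.34. Its limma adjusted p was 0.0622, short of the threshold, and its unadjusted p was 0.000278. By size of rise Pml ranked 134 of 22180 genes, the 99.4th percentile.

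The call on Pml turned on how the spread and the arrays were handled, while its size did not. When the spread was allowed to vary with intensity, limma called Pml higher at an adjusted p of 1.56e-05, in a fit that called 1.94% of all genes higher. It was also called with dim genes left out (adjusted p = 0.0236, 1.04% of 13707 genes called higher) and with arrays centred on their median (0.0362, 0.573% of genes called higher). It was not called in the other 10 alternatives, where the limma adjusted p reached 0.432. Over all 13 alternatives the log2 fold change of Pml was positive and lay between 0.88 and 0.97. Leaving out 1 array at a time gave limma adjusted p-values of 0.202 to 0.432.

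The genes whose values over the 4 arrays, taken as deviations from their own mean, were nearest to those of Pml were Mlkl, Sppl2a and Rbm43. Their Euclidean distances from Pml were 0.041, 0.042 and 0.053 on the log2 scale. Mlkl, the pseudokinase that carries out necroptosis, had a log2 level of 8.90 and 8.96 in mock and 9.86 and 9.78 in AT90ES cells. Sppl2a, a protease that cuts within membranes, had 8.95 and 8.98 in mock and 9.95 and 9.85 in AT90ES cells. Rbm43, an RNA-binding protein, had 6.12 and 6.21 in mock and 7.10 and 7.00 in AT90ES cells. Their limma adjusted p-values of 0.0695, 0.0597 and 0.0782 and the gap between their groups follow from their having been chosen for likeness to Pml and are a description.

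Daxx, the H3.3 chaperone, was at a log2 level of 7.27 and 7.29 after mock transfection and of 7.60 and 7.49 after AT90ES. The AT90ES arrays were the higher ones, with a gap of 0.20 between the groups against 0.11 between the AT90ES arrays. Its log2 fold change was 0.27 ± 0.12 (SE), 1.20-fold with a 95% interval of 0.982 to 1.47, and its limma adjusted p was 0.579. It was positive in all 13 alternatives and called in 0 of them, with a limma adjusted p of 0.368 to 0.884.

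Atrx, the remodeller that works with Daxx, had a log2 level of 9.89 and 9.86 in mock and 9.85 and 9.79 in AT90ES cells. Its groups were separated by 0.0074 on the log2 scale, less than the 0.029 between the mock arrays. The log2 fold change was -0.05 ± 0.11 (SE), and the 95% interval ran from 0.791-fold to 1.17-fold, so a halving or doubling lies outside it. The limma adjusted p was 0.928.

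Sp100, the other resident that defines the bodies, was named alone by 4 probes. The brightest, which stands for the gene, read 4.98 and 4.42 in mock and 5.17 and 4.31 in AT90ES cells. Replicates were 0.55 apart in mock and 0.86 apart in AT90ES cells, and the groups overlapped. It was above the background level on 1 of the 4 arrays, and the 3 dimmer probes were under it on all. The log2 fold change of Sp100 was 0.04 ± 0.32 (SE), with a limma adjusted p of 0.983 and a 95% interval of 0.589-fold to 1.79-fold. A change within that interval was not detectable here, and the sign of the value turned with the array left out, from -0.39 without AT90ES replicate 1 to 0.47 without AT90ES replicate 2. The dimmer probes had log2 fold changes of 0.12, -0.05 and -0.33, and the probe shared by Gm7609 and Sp100 had 0.27, none past the threshold with every probe tested separately.

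Sp110, of the Sp100 family, gave different values by probe. The brightest of its 3 own probes, which stands for the gene, read 5.11 and 5.27 in mock and 5.17 and 5.24 in AT90ES cells. These groups overlapped, with a log2 fold change of 0.01 ± 0.12 (SE), a 95% interval of 0.816-fold to 1.25-fold and a limma adjusted p of 0.983. A second probe of Sp110 (17366352) read 4.08 and 3.84 in mock and 5.03 and 4.94 in AT90ES cells. It lay under the background level on both mock arrays and just above it on both AT90ES arrays. The measured difference was 1.03 ± 0.15 on the log2 scale (SE), which did not pass with every probe tested separately (limma adjusted p = 0.316, unadjusted p = 0.00122). The AT90ES mean does not clear the background level of the mock arrays, so no fold is given. The dimmest probe read 3.76 and 3.09 in mock and 3.11 and 2.94 in AT90ES cells, under background on all arrays, with a log2 fold change of -0.40. The probe shared with A530040E14Rik had 0.17, and its groups overlapped. With the mean of its 3 own probes in place of the brightest, the log2 fold change of Sp110 was 0.21 (limma adjusted p = 0.706).

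Sp140, a chromatin reader of immune cells, has no value of its own here, only those of 3 shared probes. The probe shared by Sp140, C130026I21Rik, A530032D15Rik and a pair of unnamed loci (17366201) read 4.76 and 4.59 in mock and 5.80 and 5.84 in AT90ES cells. The groups did not overlap, and the AT90ES arrays alone were above the background level. The measured difference was 1.14 ± 0.14 on the log2 scale (SE), with a limma adjusted p of 0.214 and an unadjusted p of 0.000486. Set against the background level of the mock arrays, the measured AT90ES mean was 1.76-fold higher. That ratio has no error attached, and the difference did not pass the threshold. The probe shared by Sp140 and Gm2427 (17214924) read 3.03 and 3.04 in mock and 3.82 and 3.82 in AT90ES cells, under background throughout, with a measured difference of 0.79 ± 0.13 on the log2 scale (SE, limma adjusted p = 0.375) and no fold. The brightest shared probe (17225066) names Sp140, A530032D15Rik, C130026I21Rik and 1 of the unnamed loci of 17366201. It was above the background level on all 4 arrays, at 6.68 and 6.24 in mock and 6.68 and 6.68 in AT90ES cells. Its groups overlapped, with a log2 fold change of 0.22 (limma adjusted p = 0.866).

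The probes that name the relatives alone were set beside the shared ones. The 3 own probes of C130026I21Rik had log2 fold changes of 0.04, -0.31 and -0.08, the probe of Gm2427 had -0.36 and that of Gm7609 had 0.04. Over the 12 probes that name relatives and none of the 6 genes, values ran from -0.36 to 0.11, and both AT90ES arrays lay above both mock arrays for 0 of 12, against 17.1% of all probes, and below for 2 of 12, against 19.9%. Of these 12, 8 were under background on all arrays, where a change could go unseen, and 2 had identical values on every array. Of the 15 probes that name 1 of the 6 genes, alone or with others, the AT90ES arrays lay above for 5 and below for 2, against the same shares of all 41345 probes. Of the 15, 6 were under background on all arrays. The 5 were those of Pml and Daxx, 1 of Sp110 and 2 that Sp140 shares, the last 3 under background on both mock arrays. With every probe tested separately limma called 0 of these 15, where it called 0.0726% of all probes, and 4 of 15 had an unadjusted p under 0.05, where 7% of all did. Which gene's RNA the shared probes measured cannot be told apart.

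**Figure D2:**
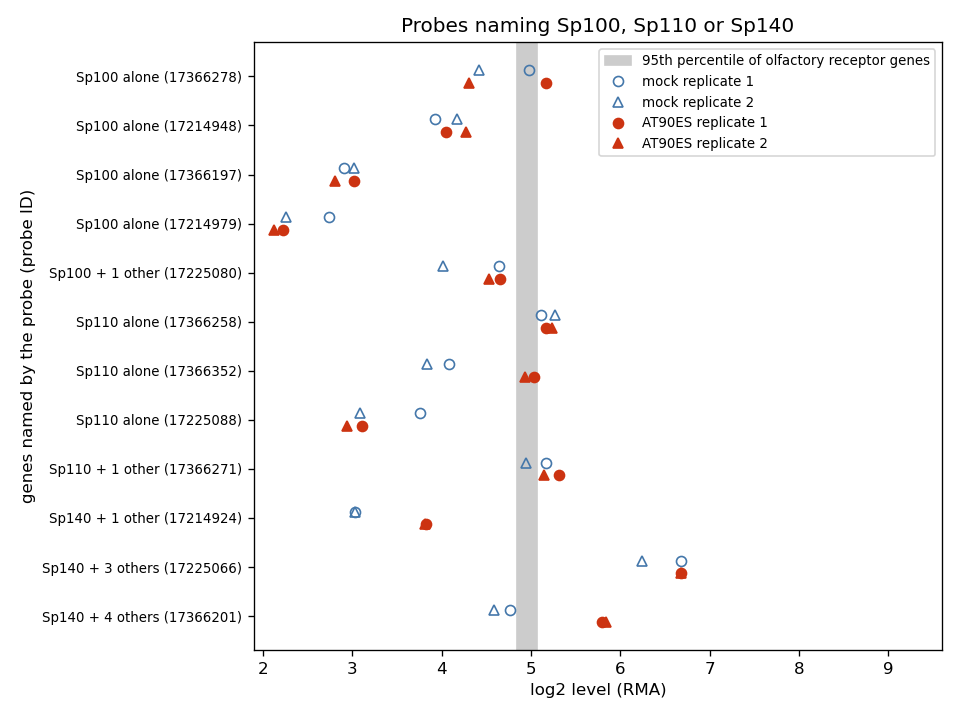
Log2 level (RMA) on each array for the 12 probes that name Sp100, Sp110 or Sp140, alone or with other genes, labelled by gene, number of other genes and probe. Symbols are as for the plot of levels by gene, and the grey band is the range of the olfactory receptor 95th percentile. The groups separate upward in 1 probe of Sp110 (17366352) and 2 shared probes of Sp140 (17366201 and 17214924), and the probes of Sp100 do not separate upward.

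The other proteins of the bodies were followed through lists of genes written by role. The SUMO pathway, whose enzymes attach and remove the modifier that holds the bodies together, had 15 measured genes, of which limma called 0 higher and 0 lower, also at an unadjusted p under 0.05. Its median log2 fold change was -0.01, with a range of -0.29 to 0.20, beside a median of -0.02 over all genes. Rnf4, the ligase that marks SUMO-modified PML for destruction, had a log2 level of 10.64 and 10.63 in mock and 10.64 and 10.60 in AT90ES cells, overlapping, with a 95% interval of -0.30 to 0.26 for the log2 fold change. Senp6, a protease that trims SUMO chains, had a log2 fold change of -0.03 and also did not pass.

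Genes of H3.3 deposition and heterochromatin, the pathway in which Daxx and Atrx act, had 13 measured members, 0 called higher and 0 lower by limma, with 0 higher and 1 lower at an unadjusted p under 0.05, where 4.5% and 4.59% of all genes were. The median log2 fold change was -0.04. Cbx3, a heterochromatin protein, had a log2 fold change of -0.21 and Trim28, a corepressor, -0.13. The lowest value was that of Asf1b, a histone chaperone of dividing cells named after its value was seen, at -0.51 ± 0.12 (SE, limma adjusted p = 0.319). Asf1b passed as lower with an intensity trend (limma adjusted p = 0.00379, in a fit that called 0.73% of all genes lower).

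Other residents and partners of the bodies had 27 measured genes, of which 3 rose, 0 fell and 24 did not pass, against 0.415% of all genes called higher. The list median was 0.07. Trp53inp1, a p53-induced protein that gathers in PML bodies, read 7.57 and 7.48 in mock and 10.63 and 10.65 in AT90ES cells and rose by 3.12 ± 0.12 on the log2 scale (SE, limma adjusted p = 0.000881). Mdm2, the ubiquitin ligase that degrades p53 and binds PML, read 8.48 and 8.68 in mock and 9.90 and 10.05 in AT90ES cells and rose by 1.39 ± 0.13 (limma adjusted p = 0.0243). Isg20, an interferon-induced exonuclease found in the bodies, read 6.16 and 6.24 in mock and 7.50 and 7.56 in AT90ES cells and rose by 1.33 ± 0.12 (limma adjusted p = 0.018). When each array was left out in turn, Trp53inp1 passed in 4 of 4 fits, while Mdm2 and Isg20 passed in 0 of 4, with limma adjusted p-values of up to 0.171 and 0.15. Rb1, the retinoblastoma protein, named after its value was seen, had a log2 fold change of 0.64 (limma adjusted p = 0.188) and passed with an intensity trend (0.00298). Trp53inp1 and Mdm2 are p53 targets, and their rise was known from earlier results of these arrays, as was that of Stat2 and Irf9 below.

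Among relatives of Sp100 and other genes with the SAND domain, a DNA-binding fold of the family, limma called 0 of 7 higher and 0 lower, also at an unadjusted p under 0.05, with a median log2 fold change of 0.04. Gmeb2 and Deaf1, transcription factors with this domain, stood at 0.05 and -0.01.

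The interferon response factors, which act on the promoters of Pml and Sp100 in other settings, had 7 measured genes, of which 2 rose, 0 fell and 5 did not pass, where 0.415% of all genes were called higher. The log2 fold change was positive for 7 of 7, against 10060 of 22180 genes, with a median of 0.71. For Irf3 and Irf8 the groups overlapped, and Irf8 was above the background level on only 1 of the 4 arrays. Stat2, a subunit of the complex that type I interferon activates, read 5.89 and 5.90 in mock and 7.81 and 7.95 in AT90ES cells and rose by 1.98 ± 0.12 (SE, limma adjusted p = 0.00389). Irf9, the DNA-binding subunit of that complex, read 5.62 and 5.68 in mock and 7.02 and 6.80 in AT90ES cells and rose by 1.26 ± 0.13 (limma adjusted p = 0.0309). With each array omitted in turn Stat2 passed in 4 of 4 fits and Irf9 in 0 of 4, with limma adjusted p-values of 0.119 to 0.219.

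The 5 others did not pass. Irf1, a factor induced by interferons, had a log2 fold change of 1.23 ± 0.16 (SE, limma adjusted p = 0.0622), and Irf2, its relative, had 0.71 ± 0.11 (0.14). Irf7, which amplifies interferon production, had 0.35, Irf8, a factor of myeloid cells, 0.08 and Irf3, the factor activated by DNA sensing, 0.04. Irf1 and Irf2, like Pml, passed with an intensity trend and with dim genes left out (limma adjusted p = 0.0299 and 0.0499 in the latter). Irf1 also passed with arrays centred on their median (0.0255) and with a replicate block (0.0488).

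**Figure D3:**
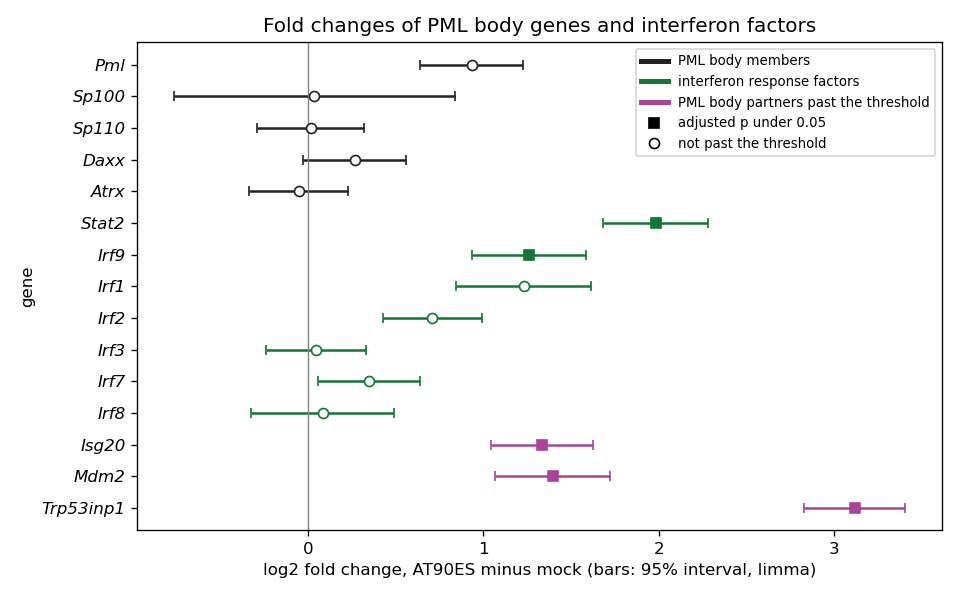
Log2 fold change, AT90ES minus mock, with its 95% interval from limma, for the 5 PML body genes, the 7 interferon response factors and the 3 partners of the bodies past the threshold. Filled squares passed an adjusted p under 0.05 and open circles did not. Among the PML body genes the interval of Pml lies wholly above 0 (0.64 to 1.22) and that of Sp100 is the widest (-0.76 to 0.84).

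**Figure D4:**
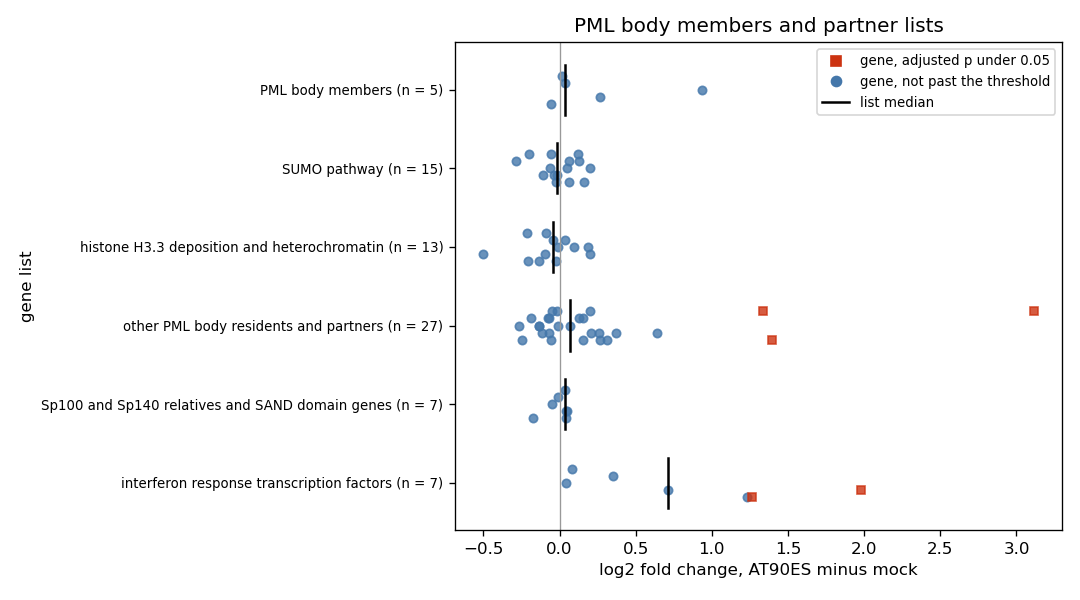
Log2 fold change, AT90ES minus mock, of each measured gene (points) in the PML body group and 5 partner lists, with the median of each list as a black line. Red squares passed an adjusted p under 0.05. The SUMO list stays between -0.29 and 0.20, while Trp53inp1 among the partners reaches 3.12.

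Across the 5 genes with a probe of their own the median log2 fold change was 0.04, beside -0.02 over all genes. The summed linear level of the myeloid markers, on the log2 scale, was 8.66 and 8.66 in mock and 8.43 to 8.53 in AT90ES cells. That of the lymphocyte markers was 7.69 to 7.78 in mock and 7.67 to 7.69 in AT90ES cells. The fibroblast and endothelial markers summed to 8.50 to 8.59 in mock and 8.42 to 8.52 in AT90ES cells. The part of other cell types in these values was not tested.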

How the data were processed

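RNA from 4 arrays of B16-OVA cells was compared, 300 ng of total RNA per array per the labels. The deposited values are log2 levels, 1 per probe and array, made by the authors with RMA, per the submitters' processing notes. Its software and settings are not given in the sources used here. RMA removes changes shared by all genes, so each value is relative to the rest of the array. Precision is limited by there being 2 arrays per group.

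The platform's annotation named the probes: 23521 had 1 symbol, 1814 several and 16010 none. Of the probes with 1 symbol, 23328 matched a RefSeq gene (GRCm38.p6) by gene ID and 0 had another symbol there. The brightest probe by mean stood for a gene, and probes of several genes entered only the test of every probe. AT90ES and mock arrays were compared with limma 3.58.1 (R 4.3.3; lmFit, eBayes, no covariate, no filter) over 22180 genes, with Benjamini-Hochberg adjustment at 0.05. The fit had 2 residual degrees of freedom and 3.70 from the shared spread, and it was tested on simulated data. Promoter windows were aligned with Biopython 1.88.

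The 6 genes and all lists were chosen with earlier results of these data known. The text names all 6 genes and their probes, in each list the genes past the threshold (or the 2 of highest mean level), all interferon response factors, and the 3 genes nearest to a member past the threshold, or, as here, to the one with the largest change. Reference genes (9 measured, 0 called, Gapdh at -0.02 and Ywhaz at 0.08, median 0.05) served as an alternative scaling. The alternatives were those of the closing section.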

Additional observations from a re-analysis of the deposited data

How the results depend on the processing

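Over 13 alternatives for each of the 5 genes, Pml and Daxx stayed positive, Atrx stayed negative, and Sp100 and Sp110, never past the threshold, changed sign in 4 and 3 alternatives. Pml, at 0.93, passed with an intensity trend (0.93), with dim genes left out (0.93) and with arrays centred on their median (0.96). The members called higher numbered 1 in each of these and 0 otherwise. Genes called higher over the array numbered 92, and 431 with a trend, 142 with dim genes left out, 30 with every probe tested separately, and 32 to 47 without 1 array, where a single array is taken to vary as the other group does. Genes called lower numbered 0, and 162 with a trend, 3 with dim genes left out and 1 with median centring. Partner genes called higher went from 3 to 5 with a trend and 1 with every probe, and were 1 in each fit without 1 array. The H3.3 list had 1 lower with a trend. Interferon factors called higher went from 2 to 4 with a trend and 4 with dim genes left out, to 1 with every probe and to 1 in each fit without 1 array. Some of these fits hold fewer genes or arrays, and the cause of the changes was not tested.

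The labels do not say whether replicate numbers pair the samples. Same-numbered deviations correlated at -0.22 over genes, which cannot settle it. With a replicate block Pml had an adjusted p = 0.124 in limma at the same 0.93. That fit called 85 genes higher and 0 lower over the array. No member was among them, while 3 interferon factors were, Irf1 included. With the crossed pairing, added after the data were seen, 59 genes were called higher, 0 members and 1 interferon factor.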
